A study of Mus musculus with 7 samples.

Results

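HopX-positive cells sorted from the adult mouse brain were compared with HopX-positive cells sorted from the brain at embryonic day 15 (E15). The comparison rested on 5 of the 7 RNA-seq libraries of the series, adult replicates 1 to 3 and E15 replicates 1 and 2, and covered the 15931 of 24978 genes in the table that reached at least 1 TPM in at least 2 of the 7 libraries. Cells of both stages came from C57BL/6 mice, had been isolated by fluorescence-activated cell sorting, and are called neural progenitor cells in the labels. The labels give no brain region, adult age, sex, allele, antibody or pooling of animals, so a difference of region or of sort cannot be told apart from a difference of stage. The origin of the replicates is not stated either. The p-values reflect the spread within stages over all 7 libraries, the 2 of postnatal day 3 included, and that spread may be technical. TPM is a gene's share of the transcripts after correction for its length, so levels of different genes can be set side by side within a library.

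Hopx encodes an atypical homeodomain protein that lacks the DNA contacts of other homeodomain proteins. In the developing cortex it is known as a marker of radial glia, above all of the outer type that is abundant in primates. In the adult brain it is known from astrocytes and from quiescent neural stem cells of the hippocampus. Radial glia divide at the ventricle and give rise to intermediate progenitors and neurons during mid gestation, and later to astrocytes, which take up glutamate and potassium, supply neurons with lactate and lipids, and cover blood vessels with their endfeet.

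Some libraries stood apart in genes of other cells. E15 replicate 1 held 1676 TPM of the globin gene Hba-a2, which has a near-identical copy, against 3.73 TPM in E15 replicate 2, and the 5 tested red blood cell genes, together with the untested members of that list, summed to 5129 TPM in the former and 16.8 TPM in the latter. Adult replicate 2 was low in myelin genes: Mog, a myelin surface protein, was found at 26.4, 0 and 31.5 TPM in adult replicates 1 to 3. The shares of all TPM in the 10 most abundant genes were 6.5% and 6.44% at E15 and between 15% and 16.5% in the adult, and between 26.5% and 31.4% of the rows were listed at 0 in adult libraries against 19% and 20.0% at E15. The depth of the libraries is unknown, since TPM keeps no read number.

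In limma, 6387 genes differed between the stages at a Benjamini-Hochberg adjusted p under 0.05. Of the tested genes, 15.4% (2457) were higher in the adult and 24.7% (3930) were lower. With median-of-ratios scaling, which moved the median of all genes by 0.28 on the log2 scale, 3080 were higher and 2705 lower, so that 53.2% of the calls were increases instead of 38.5%. The median log2 difference over all tested genes was -0.30, and every list below is read against these shares and this median. The largest differences were increases: 239 genes were higher by a log2 difference of at least 4, and 69 were lower by as much. Of the called genes, 474 increases had reached 1 TPM in adult but in no E15 library, and 531 decreases in E15 but in no adult library. Between these stages such genes reached the threshold of the filter only where they were high. Libraries of postnatal day 3 also counted for the filter, so some of these genes passed through them as well. With fewer E15 libraries the calls fell, to 1593 higher and 1865 lower without E15 replicate 1 and to 1540 and 1856 without E15 replicate 2.

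**Figure D1:**
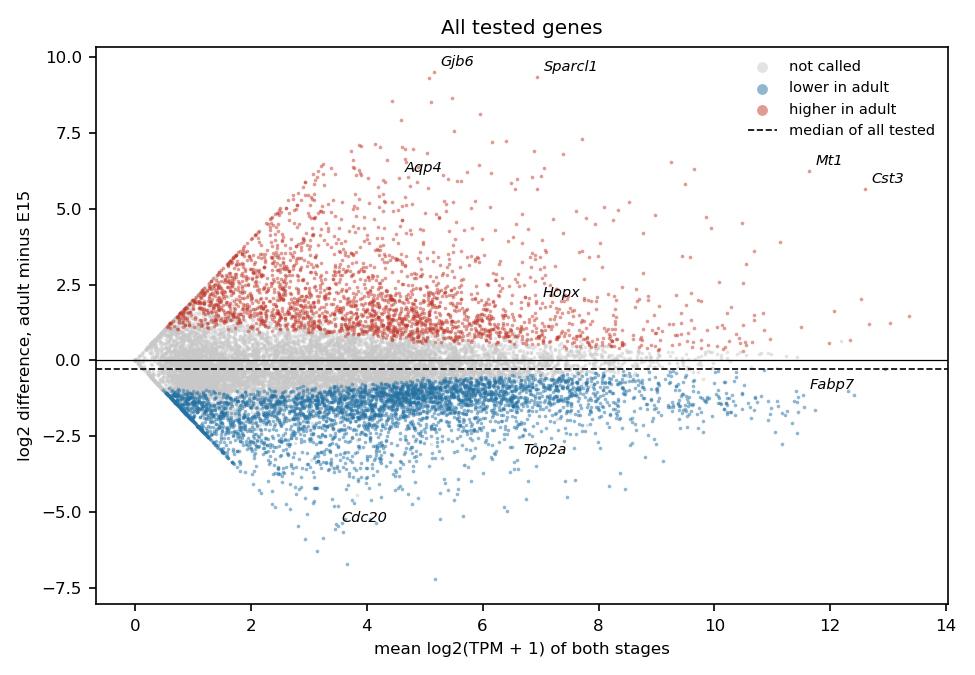
Log2 difference between adult and E15 HopX-positive cells (y axis) against the mean log2(TPM + 1) of both stages (x axis) for the 15931 tested genes, with red points called higher and blue points called lower in the adult. The increases reach further from 0 than the decreases, and the dashed median lies at -0.30.

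By the selection described below, the 10 largest increases were Gjb6, Sparcl1, Hsd11b1, Agt, Gpr37l1, Ntsr2, Cldn10, Ramp1, F3 and Pla2g7. Gjb6, the astrocytic gap junction protein connexin 30, was at 0.418 and 0.253 TPM at E15 and 1063, 985 and 846 TPM in the adult (log2 difference 9.49, SE 0.25, adjusted p = 1.58e-06). Sparcl1 (hevin), a secreted protein that promotes excitatory synapses, was measured at 5.23 and 2.76 TPM at E15 and 3257, 3012 and 3092 TPM in the adult (log2 difference 9.33, SE 0.28, adjusted p = 1.58e-06). Agt, the precursor of angiotensin, stood at 2.23 and 0.5 TPM at E15 and 869, 820.2 and 992 TPM in the adult (log2 difference 8.66, SE 0.54, adjusted p = 1.82e-05). Groups that do not overlap were a condition of that selection, so their separation is not a result. Cldn10, a claudin found in astrocytes, rose by a log2 difference of 8.13, the neurotensin receptor gene Ntsr2 by 8.52, and Gpr37l1, an orphan receptor of astrocytes, by 8.55.

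By the same selection, the 10 largest decreases were Neurod6, Dct, Grb10, Hist1h2ab, Plppr1, Fam110a, Cdc20, Hist1h2br, Dcc and Mpped1. Cdc20, an activator of the anaphase-promoting complex, was at 92.4 and 58.6 TPM at E15 and 0.806, 0.402 and 0.604 TPM in the adult (log2 difference -5.55, SE 0.35, adjusted p = 1.89e-05). Dct, dopachrome tautomerase, fell from 140.3 and 117 TPM at E15 to 0, 0.834 and 0 TPM in the adult (log2 difference -6.72, SE 0.74, adjusted p = 0.000281). Grb10, an imprinted adaptor that restrains growth factor signalling, was listed at 0 in all adult libraries and at 94.4 and 62.1 TPM at E15. Neurod6, a transcription factor of young excitatory neurons, was measured at 385 and 492 TPM at E15 and 0.655, 10.6 and 0.371 TPM in the adult (log2 difference -7.197, SE 1.28, adjusted p = 0.00296), and its call was lost without E15 replicate 2 (adjusted p = 0.0504), as was that of Mpped1 (adjusted p = 0.0529).

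Hopx itself was higher in the adult. It was measured at 62.9 and 60.5 TPM at E15 and 219.8, 249 and 229.5 TPM in the adult, and the groups did not overlap (log2 difference 1.897, SE 0.196, adjusted p = 0.000201). The cells had been sorted on HopX, so this level depends on the gate as well as on the cells. Hopx also sets the median of the outer radial glia list that follows, which thus depends on the gate too. Of the genes known as outer radial glia markers, Hopx among them, 10 of 11 tested were higher and 1 was lower, with a median log2 difference of 1.897 (9 without E15 replicate 1 and 6 without E15 replicate 2 for the increases). Fam107a, an actin-associated protein of outer radial glia and astrocytes, stood at 1.29 and 0.982 TPM at E15 and 287, 274 and 264 TPM in the adult (log2 difference 7.02, SE 0.27, adjusted p = 3.38e-06). Acsbg1, an acyl-CoA synthetase, rose from 4.97 and 2.59 TPM at E15 to 233, 252 and 230.0 TPM in the adult (log2 difference 5.69, SE 0.299, adjusted p = 8.17e-06), and Ptprz1, a receptor tyrosine phosphatase, by a log2 difference of 3.57. The exception was Tnc, a matrix glycoprotein of the outer radial glia niche, with 50.2 and 40.3 TPM at E15 and 22.8, 30.6 and 20.7 TPM in the adult (log2 difference -0.86, SE 0.28, adjusted p = 0.0409). That call was lost under both scaling alternatives (adjusted p = 0.181 after median-of-ratios scaling, 0.0875 when the 10 most abundant genes were left out), when either E15 library was left out and without adult replicate 1 or 3.

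Radial glia and neural stem cell genes split evenly. Of 28 tested, 10 were higher and 10 lower, and their median was -0.28, close to that of all genes, and 0.02 with median-of-ratios scaling. Nes, an intermediate filament of dividing progenitors, was at 20.9 and 19.3 TPM at E15 and 1.69, 0.321 and 1.13 TPM in the adult (log2 difference -3.43, SE 0.504, adjusted p = 0.00115). Pax6, a transcription factor of cortical radial glia, fell from 215 and 242 TPM at E15 to 75.97, 68.9 and 80.2 TPM in the adult (log2 difference -1.596, SE 0.18, adjusted p = 0.000326), and Vim, another intermediate filament, by 1.89 on the log2 scale. Fabp7, the brain lipid-binding protein of radial glia, stayed abundant at 4829 and 4019.9 TPM at E15 and 1829, 2309.8 and 1874 TPM in the adult, although it was called lower (log2 difference -1.14, SE 0.197, adjusted p = 0.0025; adjusted p = 0.053 without E15 replicate 1). Members of the SoxB1 group of stem cell factors differed in direction. Sox2 was measured at 27.6 and 26.7 TPM at E15 and 67.1, 58.7 and 82.9 TPM in the adult (log2 difference 1.31, SE 0.22, adjusted p = 0.00203), Sox1 rose by a log2 difference of 2.18, and Sox3 fell by 1.44 on the log2 scale, a call that was lost without E15 replicate 1 (adjusted p = 0.131). Slc1a3, the glutamate and aspartate transporter GLAST, which marks radial glia and astrocytes alike, stood at 234 and 199.8 TPM at E15 and 4570.5, 4498 and 4282 TPM in the adult (log2 difference 4.36, SE 0.18, adjusted p = 3.44e-06). No call was made for the cadherin Cdh2, for Notch1 or for Gli3, with log2 differences of -0.37, 0.2 and -0.21.

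**Figure D2:**
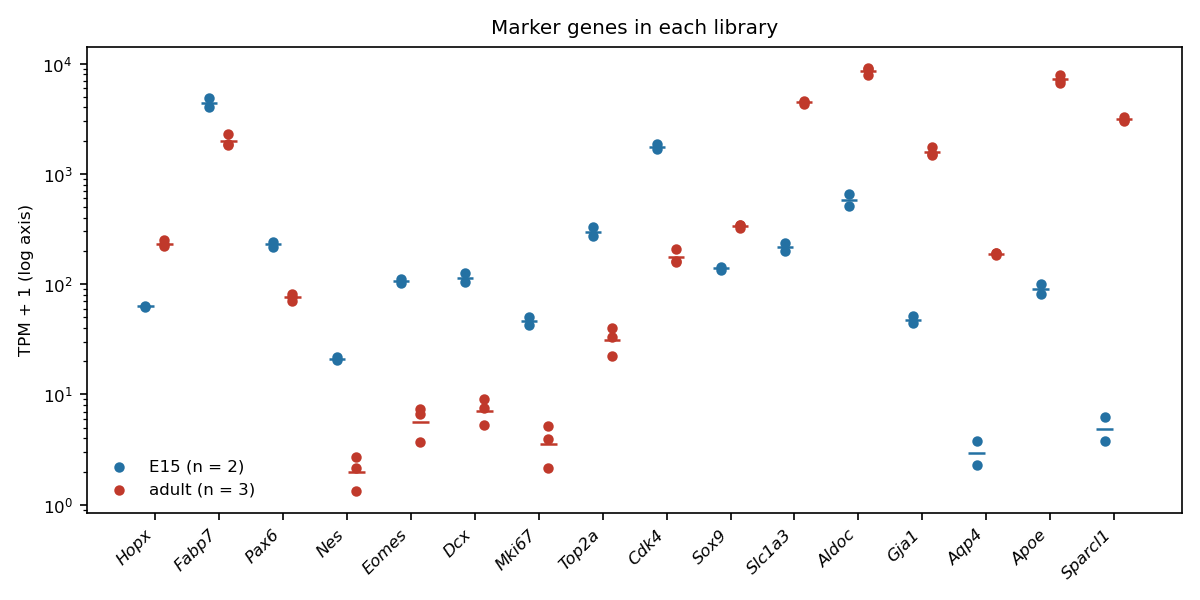
TPM + 1 on a log axis for 16 genes in each E15 library (blue, n = 2) and adult library (red, n = 3), with short lines at the geometric mean. In each of the 16 genes the adult points lie apart from the E15 points, below them from Fabp7 to Cdk4 and above them for Hopx and from Sox9 to Sparcl1.

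Genes of intermediate progenitors, the short-lived dividing daughters of radial glia, were lower in the adult. Of 17 tested members, 13 were lower and 1 was higher (0 higher without E15 replicate 2), with a median log2 difference of -3.01. Eomes (Tbr2), the defining transcription factor of these cells in the cortex, was at 100.9 and 109 TPM at E15 and 6.37, 5.62 and 2.73 TPM in the adult (log2 difference -4.23, SE 0.44, adjusted p = 0.000201). The proneural factor Neurog2 fell from 69.4 and 62.96 TPM at E15 to 3.78, 4.67 and 7.01 TPM in the adult (log2 difference -3.48, SE 0.32, adjusted p = 0.000116), and Mfng, a sugar transferase that modifies Notch receptors, by 4.72 on the log2 scale. In bulk libraries such as these, fewer cells of a type and less RNA per cell cannot be told apart.

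Immature neuron genes were present in the E15 sort and lower in the adult one. All 24 members were tested, 21 were lower and 3 higher, and the median was -2.902 (14 without E15 replicate 1 and 11 without E15 replicate 2 for the decreases). Dcx, a microtubule-binding protein of migrating neurons, was measured at 103 and 126 TPM at E15 and 8.06, 6.49 and 4.32 TPM in the adult (log2 difference -4.01, SE 0.53, adjusted p = 0.000659). Sox11, a transcription factor of newborn neurons, stood at 803 and 875 TPM at E15 and 45.97, 30.98 and 32.9 TPM in the adult (log2 difference -4.501, SE 0.45, adjusted p = 0.000172), and the cortical factor Tbr1 fell by 3.34 on the log2 scale. Every adult value of these genes lay below both E15 values. The members that rose included Ncam1 and Mapt, which are not restricted to immature neurons: Mapt, the microtubule protein tau, was at 5.32 and 6.06 TPM at E15 and 20.8, 23.4 and 25.1 TPM in the adult (log2 difference 1.85, SE 0.27, adjusted p = 0.00119). Genes of synaptic vesicles and transmission showed no common direction, with 4 of 24 tested higher and 6 lower, shares near those of all genes. Their median was 0.34, but 7 were higher and 4 lower with median-of-ratios scaling. Adult replicate 2 was the lowest adult library for Snap25, a SNARE protein, with 140.4, 34.5 and 127 TPM against 28.3 and 30.3 at E15 (log2 difference 1.51, SE 0.56, adjusted p = 0.0638). Without adult replicate 2 the increases of that list numbered 9, and its decreases numbered 1 without E15 replicate 1, 2 without E15 replicate 2 and 3 without adult replicate 3. The increases numbered 2 without E15 replicate 1 and 2 without adult replicate 1.

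Axon guidance and tubulin genes were lower more often than higher. Among 34 tested guidance ligands and receptors 18 were lower and 2 higher, with a median of -1.25 (11 without E15 replicate 1 and 11 without E15 replicate 2 for the decreases). Dcc, the netrin receptor, was measured at 75.7 and 73.04 TPM at E15 and 0.501, 1.23 and 0.531 TPM in the adult (log2 difference -5.45, SE 0.62, adjusted p = 0.000326), and the ephrin receptor Epha3 fell by 4.88 on the log2 scale. The increases were Sema4a, a semaphorin, by a log2 difference of 3.08, and the plexin Plxnb1 by 1.59. Tubulins split by isotype: 8 of 12 were lower and 2 higher. Tuba1c stood at 151 and 94.5 TPM at E15 and 5.56, 3.86 and 4.703 TPM in the adult (log2 difference -4.41, SE 0.33, adjusted p = 4.28e-05), whereas Tuba4a was at 9.8 and 11.6 TPM at E15 and 80.5, 83.3 and 75.7 TPM in the adult (log2 difference 2.79, SE 0.23, adjusted p = 7.62e-05) and Tubb2a rose by a log2 difference of 1.504. The decreases among tubulins numbered 5 when either E15 library was left out, and also 5 under median-of-ratios scaling.

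Cell division genes were lower in the adult almost without exception. All 30 genes of the G2 and M phases were lower in the adult, with a median log2 difference of -3.51, and so were 27 of 30 genes of the S phase, with a median of -1.94 (15 without E15 replicate 1 and 18 without E15 replicate 2). Top2a, a topoisomerase that untangles chromosomes in mitosis, was measured at 326 and 274 TPM at E15 and 21.4, 31.9 and 38.8 TPM in the adult (log2 difference -3.28, SE 0.26, adjusted p = 6.12e-05). Cdk1, the kinase that drives entry into mitosis, stood at 466 and 346 TPM at E15 and 43.2, 30.2 and 33.8 TPM in the adult (log2 difference -3.47, SE 0.22, adjusted p = 1.82e-05). Its partner cyclin B1, Ccnb1, was at 427 and 231 TPM at E15 and 14.5, 35.02 and 26.6 TPM in the adult (log2 difference -3.66, SE 0.398, adjusted p = 0.000259). Adult values lay far below both E15 values and above 0 in all 3 libraries. Mki67, the gene of the proliferation marker Ki-67, was measured at 49.7 and 41.5 TPM at E15 and 1.17, 4.19 and 2.98 TPM in the adult (log2 difference -3.71, SE 0.41, adjusted p = 0.000297).

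Replication genes fell less than mitotic ones in the medians, a difference that was not tested. Mcm2, a subunit of the replicative helicase, stood at 27.96 and 23.95 TPM at E15 and 1.48, 6.79 and 2.61 TPM in the adult (log2 difference -2.71, SE 0.46, adjusted p = 0.00245). Pcna, the sliding clamp of DNA polymerases, was at 367 and 369 TPM at E15 and 135, 211 and 151 TPM in the adult (log2 difference -1.17, SE 0.19, adjusted p = 0.00211). Adult replicate 2 was the highest adult library for both genes. Kinesins, motors that include many mitotic members, were lower for 19 of 34 tested (12 without E15 replicate 1) and higher for Kif1c alone, a vesicle motor whose call was lost without E15 replicate 1 (adjusted p = 0.215), E15 replicate 2 (0.0905), adult replicate 2 (0.0947) or adult replicate 3 (0.064). The spindle motor Kif23 was measured at 95.02 and 80.03 TPM at E15 and 3.06, 10.5 and 4.16 TPM in the adult (log2 difference -3.82, SE 0.44, adjusted p = 0.000354). Among 55 tested replication-dependent histone genes 33 were lower and 5 higher. Fewer genes were called in both directions when either E15 library was left out. In that family 21 members had reached 1 TPM in E15 but in no adult library. Hist1h2ab stood at 56.8 and 59.2 TPM at E15 and was listed at 0 in all adult libraries, while the linker histone Hist1h1c rose by a log2 difference of 2.29. Histone genes include near-identical copies, so values of single members are uncertain.

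The promoters of the S phase and the G2 and M phase genes are shown because these genes moved as blocks. E2F factors, the DREAM complex and NF-Y are known to control such genes through an E2F core (TTCCCGC), a cell cycle homology region (TTTGAA) and a CCAAT box. The letters were searched on both strands in the 250 bases before each start in the RefSeq promoters of build GRCm38.p6, which held 22 of the 30 S phase genes and 25 of the 30 genes of the G2 and M phases. Only promoters with a match were eligible for printing, so the presence of matches below was set by that choice. Matches are printed in capitals (ATTGG is CCAAT on the opposite strand), and none of them is TTCCCGC. Promoters of 2 genes of each list are printed from base -200 to base -1 before the start, 5′ to 3′ along the gene. They lie on the minus strand at chr6:88898781-88898980 (Mcm2), chr2:132253181-132253380 (Pcna), chr10:69352913-69353112 (Cdk1) and chr13:100786487-100786686 (Ccnb1), and no matches overlapped.
Mcm2: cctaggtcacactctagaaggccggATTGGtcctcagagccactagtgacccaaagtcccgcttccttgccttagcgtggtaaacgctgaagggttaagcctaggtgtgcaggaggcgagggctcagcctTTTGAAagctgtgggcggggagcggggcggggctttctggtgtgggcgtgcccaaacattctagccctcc
Pcna: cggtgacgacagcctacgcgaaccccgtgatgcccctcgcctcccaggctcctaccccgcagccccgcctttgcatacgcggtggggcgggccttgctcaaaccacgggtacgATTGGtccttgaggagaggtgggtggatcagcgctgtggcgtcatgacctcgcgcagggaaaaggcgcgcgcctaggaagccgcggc
Cdk1: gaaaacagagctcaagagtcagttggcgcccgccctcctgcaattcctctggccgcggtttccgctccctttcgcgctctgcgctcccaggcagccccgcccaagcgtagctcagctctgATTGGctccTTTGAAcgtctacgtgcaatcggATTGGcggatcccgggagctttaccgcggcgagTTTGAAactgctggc
Ccnb1: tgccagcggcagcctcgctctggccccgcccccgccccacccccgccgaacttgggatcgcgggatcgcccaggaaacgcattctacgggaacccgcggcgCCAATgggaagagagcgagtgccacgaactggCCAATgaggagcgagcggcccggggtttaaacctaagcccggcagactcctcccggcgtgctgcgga
CCAAT was found in 80.8% of 26 promoters of the G2 and M phase list and in 60% of 25 promoters of the S phase list, against 33.8% of all 32851 promoters. TTTGAA was found in 38.5% of the former and 12% of the latter, against 16% of all. TTCCCGC was found in 0 of the former and in 36% of the latter, against 3.82% of all. In Cdk1 each of the 2 TTTGAA matches, which start at -71 and -15, lay 3′ of a CCAAT match, at -80 and -48. These matches describe letters in a window and do not show binding.

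Among regulators of G1, 11 of 23 tested genes were lower and 4 higher (6 without E15 replicate 1 and 8 without E15 replicate 2 for the decreases; 1 increase was left when either E15 library was left out). Cdk4, the kinase partner of D-type cyclins, stood at 1855 and 1667 TPM at E15 and 159.8, 208 and 159 TPM in the adult (log2 difference -3.33, SE 0.24, adjusted p = 3.82e-05). Ccnd2, the cyclin D2 gene, was at 658 and 503 TPM at E15 and 163, 218 and 161 TPM in the adult (log2 difference -1.68, SE 0.18, adjusted p = 0.000272). The inhibitors did not move together. Cdkn1c (p57), an imprinted CDK inhibitor, was measured at 62.7 and 87.6 TPM at E15 and 2.48, 0.64 and 0.427 TPM in the adult (log2 difference -5.22, SE 0.73, adjusted p = 0.000866), and Cdkn2c (p18) rose from 16.7 and 12.9 TPM at E15 to 56.1, 76.2 and 44.4 TPM in the adult (log2 difference 1.897, SE 0.31, adjusted p = 0.0021). No call was made for Ccnd1, with a log2 difference of -0.62.

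Genes known from quiescent neural stem cells were higher in the adult, and so were those of astrocytes. Of the 26 quiescence genes 22 were higher and 2 lower, with a median log2 difference of 3.24, and all 26 astrocyte markers were higher, with a median of 4.82. Both lists share members such as Gfap, Aldoc and Gja1, so the counts are not independent. Apoe, a lipid carrier of glia, stood at 99.5 and 80.6 TPM at E15 and 7040.5, 7946 and 6627 TPM in the adult (log2 difference 6.31, SE 0.26, adjusted p = 3.44e-06). Clu, a secreted chaperone, was at 116 and 78.3 TPM at E15 and 5626, 5285 and 5278 TPM in the adult (log2 difference 5.81, SE 0.25, adjusted p = 3.44e-06). Adult values of both genes were many times the E15 ones and close to each other. Lrig1, a brake on growth factor receptors in quiescent stem cells, was measured at 19.97 and 12.4 TPM at E15 and 81.1, 92.2 and 64.9 TPM in the adult (log2 difference 2.25, SE 0.26, adjusted p = 0.000358). The lower members were Nfix and Nfia, described with the NFI factors, and Id3, an inhibitor of bHLH factors, had overlapping values of 613 and 475 TPM at E15 and 417, 541 and 433 TPM in the adult (log2 difference -0.23, SE 0.21, adjusted p = 0.409).

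Astrocyte markers differed in their E15 level and were higher in the adult, and 2 members had reached 1 TPM in adult but in no E15 library. Aldoc, a glycolytic aldolase, stood at 662 and 509.6 TPM at E15 and 9079, 8949.8 and 7925 TPM in the adult (log2 difference 3.89, SE 0.17, adjusted p = 3.44e-06). Gja1, the gap junction protein connexin 43, was at 50.02 and 43.3 TPM at E15 and 1753, 1513 and 1472 TPM in the adult (log2 difference 5.05, SE 0.21, adjusted p = 3.44e-06). The glial filament Gfap was measured at 6.2 and 0.736 TPM at E15 and 110.2, 105.1 and 104.8 TPM in the adult (log2 difference 4.93, SE 0.56, adjusted p = 0.00031). The E15 libraries differed from each other for Gfap, while the adult ones did not spread. Aldh1l1, a folate enzyme used as a pan-astrocyte marker, stood at 1.097 and 3.38 TPM at E15 and 97.8, 78.7 and 62.9 TPM in the adult (log2 difference 4.71, SE 0.34, adjusted p = 4.05e-05), and S100b, a calcium-binding protein, rose by a log2 difference of 4.32. The summed level of the 26 markers was 1157 and 977 TPM at E15 and between 19826 and 21860.0 TPM in the adult. Against the label of neural progenitor cells, the adult libraries were higher in all 26 astrocyte markers and lower in Nes, Eomes and Mki67, so the cells are called HopX-positive here.

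**Figure D3:**
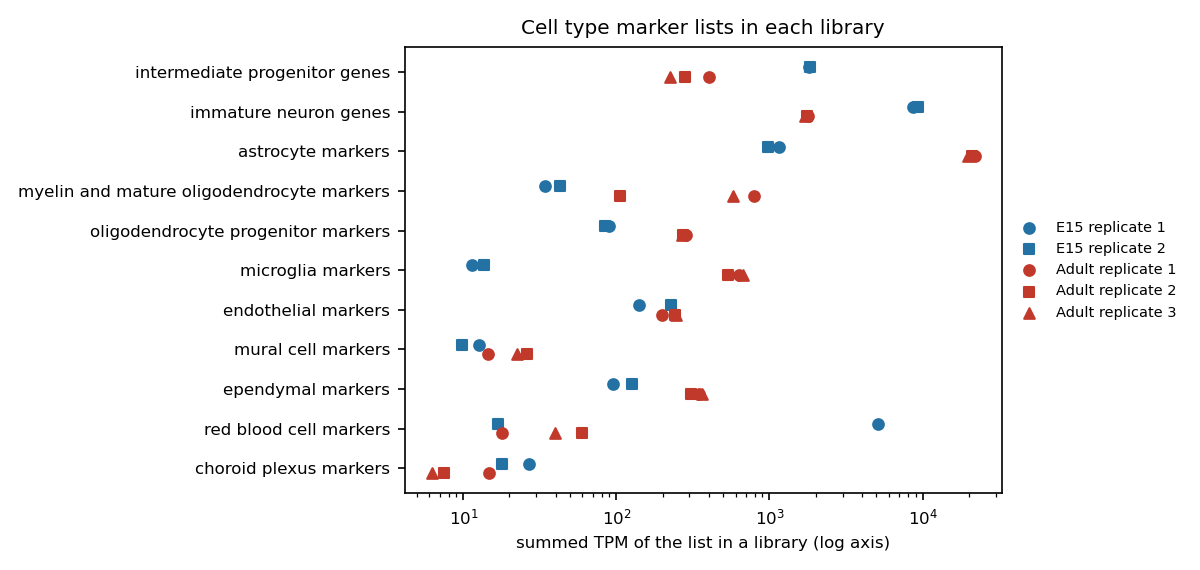
Summed TPM (log axis) of 11 cell type lists in each E15 library (blue) and adult library (red), with the symbol giving the replicate. Astrocyte and microglia lists are higher in every adult library, intermediate progenitor and immature neuron lists in every E15 library, red blood cell genes stand out in E15 replicate 1, and myelin genes are lowest among adults in replicate 2.

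Most genes through which astrocytes handle transmitters were higher in the adult. Of 22 tested genes for transmitter uptake and glial receptors 17 were higher and 2 lower, with a median log2 difference of 2.97. The decreases were Grm5 and the AMPA receptor subunit Gria4, whose call was lost with median-of-ratios scaling (adjusted p = 0.0588) and without E15 replicate 1 (0.141), E15 replicate 2 (0.104), adult replicate 1 (0.073) or adult replicate 3 (0.0765). Slc1a2, the main glutamate transporter GLT-1, was at 10.4 and 16.7 TPM at E15 and 989, 967 and 848 TPM in the adult (log2 difference 6.04, SE 0.29, adjusted p = 5.65e-06). Glul, the enzyme that turns glutamate into glutamine, was measured at 37.5 and 38.9 TPM at E15 and 703, 715 and 742 TPM in the adult (log2 difference 4.202, SE 0.13, adjusted p = 1.58e-06). Both genes were high in every adult library. For the metabotropic glutamate receptors the direction differed by gene: Grm3 stood at 6.13 and 3.35 TPM at E15 and 68.7, 59.4 and 55.3 TPM in the adult (log2 difference 3.47, SE 0.28, adjusted p = 6.76e-05). Grm5 was at 38.9 and 36.3 TPM at E15 and 16.9, 10.5 and 12.4 TPM in the adult (log2 difference -1.46, SE 0.25, adjusted p = 0.00247). Among 30 tested subunits of GABA and glutamate receptors 13 were higher and 5 lower, with Gabrg1 rising by a log2 difference of 5.005 and Grin2b by 4.25; the decreases numbered 1 without E15 replicate 1, 2 without E15 replicate 2, and 3 without adult replicate 1 or 3 or with median-of-ratios scaling.

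Genes of potassium handling included large increases. Fxyd1, a regulator of the sodium-potassium ATPase, was measured at 5.805 and 5.996 TPM at E15 and 943, 1032 and 1127 TPM in the adult (log2 difference 7.22, SE 0.37, adjusted p = 7.58e-06). It was low at E15 and high in every adult library, and 5 of 9 pump genes were higher and 1 lower (0 when either E15 library was left out). Kcnj10 (Kir4.1), the inward rectifier that clears potassium, stood at 6.54 and 6.99 TPM at E15 and 43.9, 49.9 and 39.5 TPM in the adult (log2 difference 2.54, SE 0.24, adjusted p = 0.000131). Of 49 tested potassium channel genes 15 were higher and 7 lower (3 without E15 replicate 1 and 3 without E15 replicate 2, 4 without adult replicate 1, for the decreases), with Kcnk1 rising by a log2 difference of 5.88 and Kcnk10 falling by 4.20. Voltage-gated sodium and calcium channels had 1 increase and 5 decreases among 25 tested genes, with neither share above that of all genes. Fewer decreases were called without E15 replicate 1. The increase was Cacng5, an AMPA receptor auxiliary subunit named among calcium channels, with a log2 difference of 2.88.

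At the endfoot, where astrocytes contact vessels, 8 of 12 tested genes were higher and none lower. Aqp4, the water channel, was at 2.77 and 1.29 TPM at E15 and 189.6, 182 and 189.6 TPM in the adult (log2 difference 6.0, SE 0.29, adjusted p = 5.97e-06). Dtna, the dystrobrevin that helps to anchor it, was measured at 5.81 and 4.63 TPM at E15 and 536, 472 and 370.2 TPM in the adult (log2 difference 6.2, SE 0.29, adjusted p = 5.31e-06). The anchoring receptor Dag1 rose less, with a log2 difference of 1.57. Genes by which glia form or clear synapses were higher for 11 of 18 and lower for 2 (0 when either E15 library was left out, and 1 with any adult library left out). Mertk, a receptor that engulfs synapses, stood at 0.932 and 2.26 TPM at E15 and 158, 116 and 123 TPM in the adult (log2 difference 5.72, SE 0.38, adjusted p = 2.75e-05), and Megf10, another engulfment receptor, rose by a log2 difference of 1.68. The glypican Gpc4, which recruits AMPA receptors, went the other way with 22.6 and 16.2 TPM at E15 and 8.94, 9.69 and 5.29 TPM in the adult (log2 difference -1.202, SE 0.33, adjusted p = 0.0195; the call was lost without E15 replicate 1, at an adjusted p of 0.156, without E15 replicate 2, at 0.0625, and after rescaling by median of ratios, at 0.0503).

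The 2 most abundant genes of the adult libraries were Cst3 and Mt1. Cst3 (cystatin C), an inhibitor of cysteine proteases, was at 854 and 897 TPM at E15 and 44931, 44589 and 42769 TPM in the adult (log2 difference 5.65, SE 0.21, adjusted p = 2.40e-06). The metallothionein Mt1 was measured at 412 and 325 TPM at E15 and 25391, 26245 and 31732 TPM in the adult (log2 difference 6.24, SE 0.26, adjusted p = 3.44e-06). Mt3, the brain form, stood at 182 and 176 TPM at E15 and 4563, 5024 and 4864 TPM in the adult (log2 difference 4.74, SE 0.201, adjusted p = 3.44e-06). Of the 17 tested S100, metallothionein and acute phase genes 13 were higher and 2 lower, the median was 4.79, and the decreases were Vim and the ferroxidase Cp. S100a1 rose by a log2 difference of 6.81 and S100a6 by 6.83. Serpina3n, an acute phase protease inhibitor, was at 0.061 and 0.0646 TPM at E15 and 36, 22.1 and 28.8 TPM in the adult (log2 difference 4.79, SE 0.402, adjusted p = 7.70e-05).

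Hormone handling and the clock were among the gene groups with increases and no decrease. Of 14 tested genes for glucocorticoid and thyroid hormone 11 were higher, with a median log2 difference of 2.73. Among them 4 members had reached 1 TPM in adult but in no E15 library. Hsd11b1, which reactivates glucocorticoids inside cells, was measured at 0.66 and 0.0678 TPM at E15 and 899, 853 and 802 TPM in the adult (log2 difference 9.32, SE 0.26, adjusted p = 1.58e-06). Nr3c1, the glucocorticoid receptor, stood at 2.55 and 3.23 TPM at E15 and 35.3, 36.7 and 30.8 TPM in the adult (log2 difference 3.18, SE 0.29, adjusted p = 0.000108). Dio2, which makes active thyroid hormone, was at 3.8 and 3.202 TPM at E15 and 36.5, 33.7 and 29.6 TPM in the adult (log2 difference 2.93, SE 0.27, adjusted p = 0.000128). All adult values of the 3 genes exceeded the E15 values. Known targets of these hormones rose too, Tsc22d3 by a log2 difference of 3.13 and Klf9 by 4.05. Among 19 clock genes 14 were higher, with a median of 1.94: Dbp, an output factor of the clock, was measured at 1.79 and 0 TPM at E15 and 35.4, 59.6 and 49.2 TPM in the adult (log2 difference 4.84, SE 0.45, adjusted p = 0.000128). Per2, a core repressor, stood at 1.29 and 0.609 TPM at E15 and 6.02, 10.4 and 9.75 TPM in the adult (log2 difference 2.31, SE 0.399, adjusted p = 0.00256). The hour at which tissue was taken is not stated and cannot be told apart from stage. Immediate early genes had 7 decreases and no increase among 22 tested, against 24.7% lower and 15.4% higher of all genes. With median-of-ratios scaling 5 were lower and 1 was higher. Fewer decreases were called when either E15 library was left out. Ier2 fell by 2.44 on the log2 scale. Fos overlapped at 85.7 and 98.4 TPM at E15 and 90.4, 64.8 and 51.2 TPM in the adult (log2 difference -0.45, SE 0.26, adjusted p = 0.207).

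**Figure D4:**
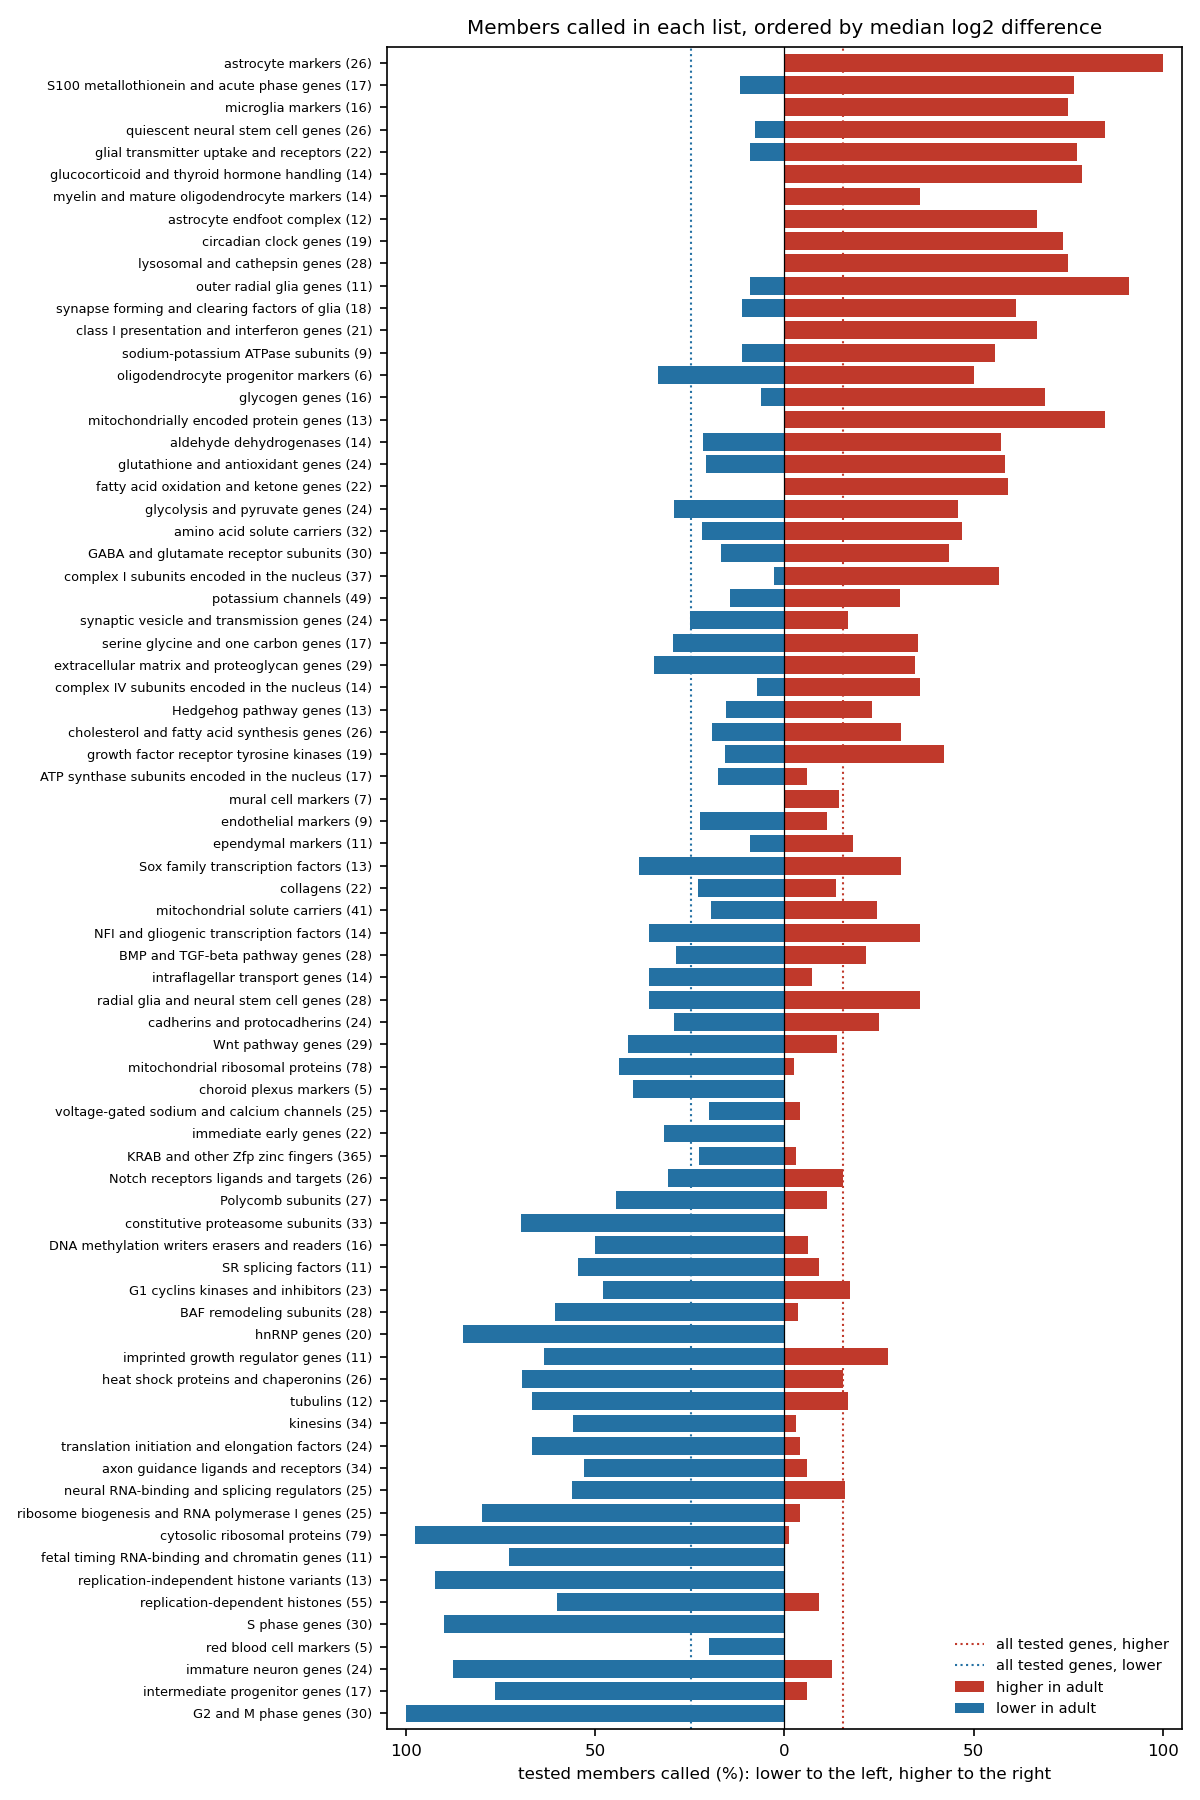
Percent of the tested members of each gene list (number tested in brackets) called higher (red, right) or lower (blue, left) in the adult, ordered by the list's median log2 difference. Dotted lines give the shares over all tested genes, 15.4% higher and 24.7% lower; astrocyte markers reach 100% to the right and G2 and M phase genes 100% to the left.

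Signalling genes changed member by member. In the Notch pathway 8 of 26 tested genes were lower and 4 higher (6 without E15 replicate 1 and 4 without E15 replicate 2 for the decreases), shares near those of all genes. No common direction was seen. The Notch target Hes5, which holds radial glia undifferentiated, was at 136 and 144 TPM at E15 and 38.3, 34.2 and 29.8 TPM in the adult (log2 difference -2.01, SE 0.19, adjusted p = 0.00014), and the ligand-like protein Dner rose from 2.75 and 2.83 TPM at E15 to 28.7, 42.5 and 39.4 TPM in the adult (log2 difference 3.301, SE 0.29, adjusted p = 9.57e-05). No call was made for the receptor Notch1 or the ligand Dll1, with log2 differences of 0.2 and -1.21. In the Wnt pathway 12 of 29 were lower and 4 higher (7 without E15 replicate 1 and 6 without E15 replicate 2 for the decreases; 2 increases without the former). The ligand Wnt5a was measured at 36.4 and 38.6 TPM at E15 and 7.69, 3.54 and 3.05 TPM in the adult (log2 difference -2.83, SE 0.398, adjusted p = 0.000925). The secreted antagonist Frzb stood at 6.86 and 3.67 TPM at E15 and 109, 111 and 136 TPM in the adult (log2 difference 4.296, SE 0.36, adjusted p = 7.04e-05), so secreted modulators moved in both directions: Sfrp1 fell by 1.85 on the log2 scale and Dkk3 rose by a log2 difference of 1.88.

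Among BMP and TGF-beta genes 6 of 28 were higher and 8 lower, and their median of -0.24 became 0.08 with median-of-ratios scaling; increases and decreases numbered 4 and 2 without E15 replicate 1, and 3 each without E15 replicate 2. Without adult replicate 2 or 3 the decreases numbered 4, as with median-of-ratios scaling. The receptor Bmpr1b was at 5.01 and 2.75 TPM at E15 and 39.8, 33.2 and 33.3 TPM in the adult (log2 difference 2.94, SE 0.36, adjusted p = 0.00049). The BMP target Id2 was measured at 444 and 437 TPM at E15 and 2576, 2602 and 2726 TPM in the adult (log2 difference 2.58, SE 0.18, adjusted p = 3.42e-05). Ligands of the family passed the filter in part: Bmp2, Bmp4 and Bmp6 were not tested. Hedgehog genes were higher for 3 of 13 and lower for 2 (1 decrease when either E15 library was left out, and 3 without adult replicate 3). The receptor and target Ptch1 stood at 2.28 and 2.14 TPM at E15 and 41.9, 33.2 and 32.8 TPM in the adult (log2 difference 3.52, SE 0.29, adjusted p = 6.83e-05). The target Gli1 was at 0 and 0.234 TPM at E15 and 1.88, 3.27 and 2.85 TPM in the adult (log2 difference 1.703, SE 0.35, adjusted p = 0.00585). The transducer Smo overlapped at 12.8 and 17.1 TPM at E15 and 17.9, 14.4 and 19.9 TPM in the adult (log2 difference 0.21, SE 0.27, adjusted p = 0.57). The co-receptor Cdon was lower, with 31.2 and 36.6 TPM at E15 and 2.46, 5.24 and 2.76 TPM in the adult (log2 difference -3.01, SE 0.42, adjusted p = 0.000898). Shh, the ligand, was not tested.

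Receptor tyrosine kinases were higher for 8 of 19 tested genes and lower for 3. Ntrk2 (TrkB), the BDNF receptor, was measured at 5.62 and 5.46 TPM at E15 and 246, 249 and 242 TPM in the adult (log2 difference 5.24, SE 0.21, adjusted p = 3.44e-06). Fgfr3, an FGF receptor of astrocytes and their precursors, stood at 10.1 and 10.98 TPM at E15 and 243, 226 and 214 TPM in the adult (log2 difference 4.31, SE 0.22, adjusted p = 7.15e-06). Egfr was at 0.854 and 1.45 TPM at E15 and 18.9, 16.1 and 14.4 TPM in the adult (log2 difference 3.02, SE 0.35, adjusted p = 0.000333). The decreases were Ntrk3, Tyro3 and Ptk7, and none of them was called without E15 replicate 2; 1 was called without E15 replicate 1. Pdgfra, which marks oligodendrocyte progenitors, did not pass the filter.

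Transcription factors of the Sox family were found in both directions. Sox4 fell from 186 and 208 TPM at E15 to 31.9, 29.8 and 28.2 TPM in the adult (log2 difference -2.68, SE 0.24, adjusted p = 0.000106), as did its SoxC relative Sox11 described above, while Sox9, a glial fate factor, was measured at 142 and 133 TPM at E15 and 345, 320.3 and 344 TPM in the adult (log2 difference 1.28, SE 0.16, adjusted p = 0.000468). Of the family, 5 of 13 tested Sox genes were lower and 4 higher (2 without E15 replicate 1 and 3 without E15 replicate 2 for the decreases). Of 14 tested NFI and other gliogenic factors 5 were higher and 5 lower. Their median log2 difference was -0.24, and 0.07 with median-of-ratios scaling. The NFI factors Nfix, Nfib and Nfia, which switch progenitors towards gliogenesis, were lower in the adult. Nfix stood at 613 and 678 TPM at E15 and 91.3, 83.7 and 126 TPM in the adult (log2 difference -2.695, SE 0.21, adjusted p = 5.16e-05). Nfib was at 530.1 and 599 TPM at E15 and 107, 106 and 104 TPM in the adult (log2 difference -2.402, SE 0.19, adjusted p = 5.40e-05). Nfia was measured at 181 and 204 TPM at E15 and 76.3, 83.1 and 83.1 TPM in the adult (log2 difference -1.24, SE 0.15, adjusted p = 0.000437). The groups did not overlap for any of these 3 genes, and no alternative ended their calls. Rorb, a nuclear receptor, rose by a log2 difference of 2.81 and Nr2f2 by 2.07.

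Chromatin regulators were lower more often than higher. Of 27 Polycomb subunits 12 were lower and 3 higher (4 without E15 replicate 1 and 5 without E15 replicate 2 for the decreases, 7 with median-of-ratios scaling; 1 increase when either E15 library was left out). Ezh2, the methyltransferase of dividing cells, stood at 296 and 311 TPM at E15 and 75.1, 81.3 and 65.9 TPM in the adult (log2 difference -2.02, SE 0.26, adjusted p = 0.00063). Its paralog Ezh1 was at 17.1 and 18.7 TPM at E15 and 25.99, 25.3 and 25.8 TPM in the adult (log2 difference 0.499, SE 0.27, adjusted p = 0.178). The E15 values of Ezh2 were far above its adult values, while those of Ezh1 were below them without passing the test. The reader subunits differed in direction. Cbx2 was measured at 5.601 and 5.83 TPM at E15 and 0, 1.297 and 0.0655 TPM in the adult (log2 difference -2.32, SE 0.46, adjusted p = 0.005). Cbx7 stood at 1.504 and 0.354 TPM at E15 and 11.4, 15.8 and 13.3 TPM in the adult (log2 difference 2.97, SE 0.397, adjusted p = 0.000722). Of 28 BAF remodeling subunits 17 were lower and 1 higher (11 without E15 replicate 1 and 11 without E15 replicate 2 for the decreases). The ATPase Smarca4 (BRG1) was at 46.8 and 55.5 TPM at E15 and 5.74, 7.09 and 4.22 TPM in the adult (log2 difference -2.98, SE 0.41, adjusted p = 0.000779). The alternative ATPase Smarca2 (BRM) overlapped at 90.9 and 109 TPM at E15 and 129, 99.9 and 124 TPM in the adult (log2 difference 0.23, SE 0.18, adjusted p = 0.341). The member that rose was Dpf3, with a log2 difference of 2.22.

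DNA methylation genes were lower for 8 of 16 and higher for Mbd2 alone, whose call was not made when either E15 library was left out. Dnmt1, the maintenance methyltransferase, was measured at 65.1 and 75.5 TPM at E15 and 25.2, 23.1 and 21.8 TPM in the adult (log2 difference -1.55, SE 0.202, adjusted p = 0.000646). The decreases numbered 2 when either E15 library was left out, and 5 under median-of-ratios scaling. Histone variants made outside the S phase were lower for 12 of 13. Among the abundant variants H2afz stood at 5156 and 4476 TPM at E15 and 788, 1096 and 928 TPM in the adult (log2 difference -2.37, SE 0.17, adjusted p = 3.77e-05). H3f3b was at 3004 and 2782 TPM at E15 and 1028, 945 and 854 TPM in the adult (log2 difference -1.62, SE 0.12, adjusted p = 3.98e-05). Genes tied to fetal stem cell timing were lower for 8 of 11 (6 without E15 replicate 1 and 5 without E15 replicate 2). The mRNA-binding protein Igf2bp3 was measured at 36.1 and 42.2 TPM at E15 and 10.3, 12.5 and 14.3 TPM in the adult (log2 difference -1.59, SE 0.24, adjusted p = 0.00124); Lin28a and Lin28b did not pass the filter. Zfp zinc finger genes, a family of 365 tested members, were lower for 82 and higher for 11 (34 without E15 replicate 1 and 34 without E15 replicate 2 for the decreases). Median-of-ratios scaling gave 22 increases, and leaving out E15 replicate 1 or 2 gave 6 or 4. The share of decreases was near the 24.7% of all genes and that of increases below the 15.4%. Zfp57, which guards imprints, stood at 54.2 and 63.5 TPM at E15 and 2.98, 1.12 and 0.156 TPM in the adult (log2 difference -4.803, SE 0.67, adjusted p = 0.000912).

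RNA-binding proteins were lower more often than higher. Of 25 neural RNA-binding proteins 14 were lower and 4 higher (11 without E15 replicate 1 and 9 without E15 replicate 2 for the decreases). The neuronal protein Elavl4 (HuD) was at 413 and 458 TPM at E15 and 50.7, 24.2 and 15.8 TPM in the adult (log2 difference -3.96, SE 0.49, adjusted p = 0.000474). Qk, which promotes glial splicing, was measured at 134 and 111 TPM at E15 and 289, 287 and 265 TPM in the adult (log2 difference 1.19, SE 0.15, adjusted p = 0.000583). Both polypyrimidine tract proteins were lower, Ptbp1, known from progenitors, by 1.71 on the log2 scale and its neuronal paralog Ptbp2 by 1.66. Of 20 hnRNP genes 17 were lower and none higher (11 without E15 replicate 1 and 12 without E15 replicate 2). Hnrnpa1 stood at 1078 and 885 TPM at E15 and 152, 133 and 138 TPM in the adult (log2 difference -2.78, SE 0.26, adjusted p = 0.000122).

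Genes of protein synthesis and folding were mostly lower in the adult. Of 79 tested cytosolic ribosomal protein genes 77 were lower, with a median log2 difference of -1.47; with median-of-ratios scaling the median was -1.16 and 75 were lower. Rpl13 was at 2106 and 1943 TPM at E15 and 428, 384 and 382 TPM in the adult (log2 difference -2.34, SE 0.13, adjusted p = 1.14e-05). The only increase was the muscle paralog Rpl3l, which E15 libraries list at 0 and adult ones at 2.78, 2.68 and 3.42 TPM. Many ribosomal protein genes have near-identical pseudogenes, and so have Eef1a1, Npm1, Hnrnpa1 and H3f3b; how the authors' counting split such reads is not stated. Translation factors were lower for 16 of 24 and higher for Eif1 alone, whose call was lost when either E15 library was left out. Among the decreases the elongation factor Eef1a1 had 5490.1 and 5168 TPM at E15 and 1307, 1319 and 1167 TPM in the adult (log2 difference -2.08, SE 0.16, adjusted p = 5.79e-05). Ribosome biogenesis genes were lower for 20 of 25, and for 13 with median-of-ratios scaling (9 without E15 replicate 1 and 10 without E15 replicate 2). The nucleolar chaperone Npm1 was measured at 1115 and 1096 TPM at E15 and 343, 340.5 and 355 TPM in the adult (log2 difference -1.67, SE 0.16, adjusted p = 0.000123).

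Among 26 heat shock and chaperonin genes 18 were lower and 4 higher. Hsp90ab1, the constitutive form of HSP90, stood at 1552 and 1606 TPM at E15 and 372, 309 and 347 TPM in the adult (log2 difference -2.204, SE 0.21, adjusted p = 0.00014). Hspa8, the constitutive HSP70, was at 3255 and 2899 TPM at E15 and 799.7, 807 and 867 TPM in the adult (log2 difference -1.897, SE 0.14, adjusted p = 4.56e-05). Both were among the abundant genes at E15 and lower in every adult library. The stress-induced form Hspa1a was low at both stages, at 1.61 and 2.48 TPM at E15 and 1.55, 0.636 and 0.257 TPM in the adult (log2 difference -0.79, SE 0.42, adjusted p = 0.167). The exceptions included Hspa2, with 2.77 and 1.85 TPM at E15 and 139, 107 and 118 TPM in the adult (log2 difference 5.21, SE 0.32, adjusted p = 1.63e-05), and the small heat shock protein Hspb8, with a log2 difference of 3.44. Constitutive proteasome subunits were lower for 23 of 33 and higher for none, but for 11 with median-of-ratios scaling (13 without E15 replicate 1 and 14 without E15 replicate 2). Mitochondrial ribosomal proteins were lower for 34 of 78 and higher for 2, a split that was 9 lower and 10 higher with median-of-ratios scaling, so no direction is given for that family (9 decreases without E15 replicate 1 and 8 without E15 replicate 2).

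**Figure D5:**
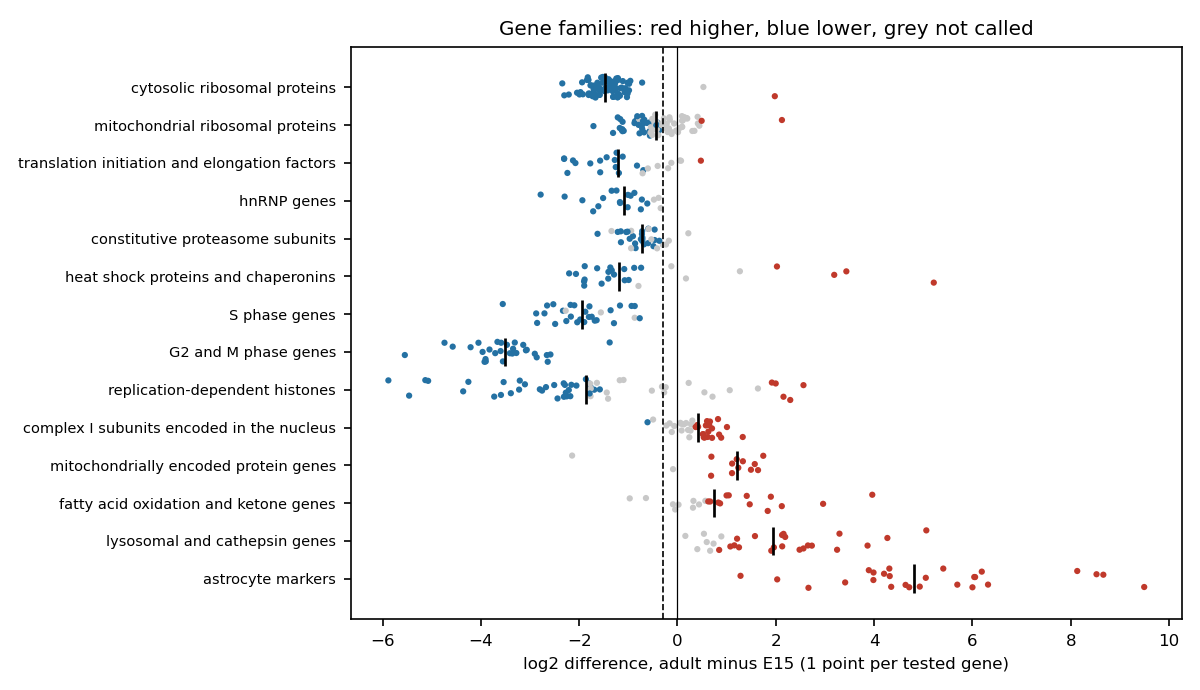
Log2 difference between adult and E15 for every tested member of 14 gene lists, 1 point per gene, red if called higher, blue if called lower and grey if not called; black bars give each list's median and the dashed line the median of all genes, -0.30. Ribosomal protein genes form a narrow band around -1.47, whereas astrocyte markers spread from 1.28 to 9.49.

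Genes of respiratory complexes were mostly higher where mitochondrial DNA encodes them, and less uniformly so where the nucleus does. That difference was not tested. Of 13 mitochondrially encoded protein genes 11 were higher and none lower, with a median log2 difference of 1.21. The 2 that were not called had negative log2 differences, the lowest of them -2.14, and 1 decrease was called without adult replicate 3. Cytochrome b, mt-Cytb, was measured at 2216 and 2627 TPM at E15 and 7371, 6826 and 8430.1 TPM in the adult (log2 difference 1.64, SE 0.12, adjusted p = 4.05e-05). Mitochondrial genes took 2.11% and 2.61% of all TPM at E15 and between 4.86% and 6% in the adult. Of 37 nuclear subunits of complex I 21 were higher and 1 lower, with a median of 0.42 (12 higher when either E15 library was left out and 9 in limma without the trend). Ndufc2 stood at 1050.3 and 1021 TPM at E15 and 2468, 2593 and 2746 TPM in the adult (log2 difference 1.33, SE 0.14, adjusted p = 0.000241). Nuclear subunits of ATP synthase had a median of 0.07, with 1 increase and 3 decreases among 17, and 7 increases and no decrease with median-of-ratios scaling. The decreases numbered 1 when either E15 library was left out, and the increases 2 without adult replicate 1 or 3.

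Glycolytic genes changed in both directions. Of 24 tested 11 were higher and 7 lower, with a median of 0.74. The lactate dehydrogenase Ldha was at 760.2 and 713 TPM at E15 and 202, 188 and 202 TPM in the adult (log2 difference -1.89, SE 0.12, adjusted p = 1.96e-05). Ldhb, the form that favours pyruvate, was measured at 728 and 660.0 TPM at E15 and 2095, 2001 and 1989.7 TPM in the adult (log2 difference 1.55, SE 0.103, adjusted p = 2.53e-05). The 2 subunits thus changed order, with Ldha slightly the higher in both E15 libraries and Ldhb in all adult ones. The pyruvate kinase Pkm fell by 1.65 on the log2 scale, the phosphofructokinase Pfkp rose by a log2 difference of 4.14, and the glucose transporter Slc2a1 stood at 18.7 and 18.9 TPM at E15 and 87.6, 92.1 and 75.4 TPM in the adult (log2 difference 2.12, SE 0.198, adjusted p = 0.000129). The decreases of that list numbered 3 without E15 replicate 1.

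Genes of fat oxidation and glycogen were higher more often than lower. Of 22 genes of fatty acid oxidation and ketone bodies 13 were higher and none lower, with a median of 0.75. The dehydrogenase Acadl was at 13.95 and 15.8 TPM at E15 and 131, 115 and 123 TPM in the adult (log2 difference 2.96, SE 0.23, adjusted p = 5.20e-05). Of 16 glycogen genes 11 were higher and 1 lower, Pgm1, whose call was lost when either E15 library was left out and without adult replicate 1 or 2. Ppp1r3c, which targets a phosphatase to glycogen, was measured at 4.12 and 2.14 TPM at E15 and 69.5, 80.4 and 43.8 TPM in the adult (log2 difference 3.99, SE 0.39, adjusted p = 0.000147). The phosphorylase Pygb stood at 27.1 and 35.4 TPM at E15 and 62.5, 71.2 and 76.9 TPM in the adult (log2 difference 1.15, SE 0.202, adjusted p = 0.00279). Cholesterol and fatty acid synthesis genes had 8 increases and 5 decreases among 26, with 1 decrease left under both scaling alternatives and without E15 replicate 1, and 2 without E15 replicate 2, adult replicate 2 or adult replicate 3. The citrate lyase Acly was at 125 and 125 TPM at E15 and 31.3, 29.04 and 17.9 TPM in the adult (log2 difference -2.25, SE 0.304, adjusted p = 0.000753).

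One-carbon and antioxidant enzymes were mixed. Among 17 serine, glycine and folate genes 6 were higher and 5 lower. Neighbouring enzymes differed in direction. The glycine decarboxylase Gldc was measured at 17.9 and 14.9 TPM at E15 and 87.2, 83.6 and 78.5 TPM in the adult (log2 difference 2.28, SE 0.21, adjusted p = 0.000106), the hydroxymethyltransferase Shmt1 fell by 1.82 on the log2 scale, and Phgdh, the entry enzyme of serine synthesis, overlapped at 199 and 159 TPM at E15 and 229.9, 238 and 193 TPM in the adult (log2 difference 0.302, SE 0.23, adjusted p = 0.324). Among 24 glutathione and antioxidant genes 14 were higher and 5 lower. Gstm1, a glutathione transferase, stood at 54.4 and 71.5 TPM at E15 and 5644, 5821 and 6177 TPM in the adult (log2 difference 6.54, SE 0.21, adjusted p = 1.58e-06). The peroxiredoxin Prdx6 was at 527 and 464 TPM at E15 and 4470.3, 4391 and 4526 TPM in the adult (log2 difference 3.17, SE 0.17, adjusted p = 8.66e-06), with every adult value above the E15 ones, whereas the glutathione peroxidase Gpx1 fell by 1.48 on the log2 scale. For both lists the decreases numbered 3 when either E15 library was left out, and for the second also with median-of-ratios scaling. Aldehyde dehydrogenases were higher for 8 of 14 and lower for 3. Aldh1b1 was measured at 18.6 and 10.2 TPM at E15 and 0.152, 0.205 and 0 TPM in the adult (log2 difference -3.73, SE 0.41, adjusted p = 0.000285).

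Lysosomal genes were higher for 21 of 28 and lower for none, with a median log2 difference of 1.93. The aspartic protease Ctsd stood at 67.4 and 52.2 TPM at E15 and 354, 361 and 298 TPM in the adult (log2 difference 2.48, SE 0.21, adjusted p = 7.99e-05). The membrane protein Lamp1 was at 29.2 and 35.3 TPM at E15 and 328, 330.0 and 285 TPM in the adult (log2 difference 3.25, SE 0.25, adjusted p = 5.17e-05). Antigen presentation and interferon genes were higher for 14 of 21 and lower for none. Fewer increases were called when either E15 library was left out. In that list 6 members had reached 1 TPM in adult but in no E15 library. B2m, the light chain of MHC class I, was measured at 80.7 and 73.5 TPM at E15 and 899.9, 906 and 722 TPM in the adult (log2 difference 3.43, SE 0.24, adjusted p = 3.30e-05).

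Microglia markers moved with both of these groups. Of 16 tested, 12 were higher and none lower, and 10 had reached 1 TPM in adult but in no E15 library. The 16 markers summed to 11.4 and 13.6 TPM at E15 and to between 539 and 668 TPM in the adult. P2ry12, a purine receptor of microglia, stood at 1.796 and 0 TPM at E15 and 67.2, 28.7 and 63.6 TPM in the adult (log2 difference 4.92, SE 0.54, adjusted p = 0.000273). Csf1r was at 0.262 and 0.698 TPM at E15 and 5.25, 5.998 and 8.42 TPM in the adult (log2 difference 2.35, SE 0.36, adjusted p = 0.00146). Cx3cr1 was not called, with 0.471 and 0.755 TPM at E15 and 9.61, 0.886 and 11.6 TPM in the adult (log2 difference 1.98, SE 0.76, adjusted p = 0.0691). Adult replicate 2 was the lowest adult library for P2ry12 and Cx3cr1, replicate 1 for Csf1r and replicate 3 for Aif1. Among defining markers, Tyrobp and C1qc were listed at 0 in both E15 libraries, Aif1 and P2ry12 in E15 replicate 2, and Tmem119 in E15 replicate 1 and adult replicate 3. Ctss of the microglia list encodes a lysosomal enzyme, and the lists of microglia and lysosomal genes share a member. The part of these markers in the lysosomal and antigen presentation results was not tested.

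Markers of other cells differed less evenly. Of 14 tested myelin genes 5 were higher and none lower, and 6 members had reached 1 TPM in adult but in no E15 library. The increases numbered 12 without adult replicate 2, 3 without adult replicate 1 or 3, and 1 when either E15 library was left out. Their sum was 34.2 and 43.1 TPM at E15 and 795, 104.7 and 579 TPM in the adult, and Mog, Opalin and Cldn11 were listed at 0 in adult replicate 2. Olig2, a factor of oligodendrocyte progenitors and of some astrocytes, was measured at 0.253 and 0.804 TPM at E15 and 6.54, 4.12 and 6.61 TPM in the adult (log2 difference 2.14, SE 0.37, adjusted p = 0.0026). The endothelial list gave 1 increase and 2 decreases among 9 tested genes (3 and 2 without adult replicate 3, 1 and 0 without E15 replicate 1, 1 and 1 without E15 replicate 2). Its members Cldn5 and Cdh5 did not pass the filter, whereas Pecam1, an adhesion molecule of endothelial and blood cells, overlapped at 87.7 and 186 TPM at E15 and 92.8, 108 and 161 TPM in the adult (log2 difference -0.12, SE 0.36, adjusted p = 0.818). The ependymal list gave 2 increases and 1 decrease among 11 tested genes (3 and 1 without adult replicate 2). Fewer were called in both directions without E15 replicate 1. Its median log2 difference was -0.05, with 4 members positive and 7 negative. Its sum was 95.3 and 126 TPM at E15 and between 305 and 361 TPM in the adult. Rarres2 alone made up most of the sum in each adult library. Rarres2, the gene of the secreted protein chemerin, stood at 0.78 and 0.505 TPM at E15 and 219, 176 and 258 TPM in the adult (log2 difference 7.04, SE 0.28, adjusted p = 3.44e-06). The other increase was Dynlrb2, a dynein light chain, by a log2 difference of 1.74 (adjusted p = 0.0758 without E15 replicate 1), and the ciliary factor Foxj1 did not pass the filter. The mural receptor Pdgfrb rose from 0.751 and 1.16 TPM at E15 to 8.57, 11.5 and 7.14 TPM in the adult (log2 difference 2.35, SE 0.38, adjusted p = 0.00184), while the mural marker Rgs5 overlapped with a log2 difference of 0.37.

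Matrix genes changed in both directions. Of 29 tested matrix and proteoglycan genes 10 were higher and 10 lower (5 without E15 replicate 1 and 3 without E15 replicate 2 for the decreases; 6 with median-of-ratios scaling). Bcan (brevican), a hyaluronan-binding proteoglycan, was at 25.4 and 23.2 TPM at E15 and 251, 244 and 239.5 TPM in the adult (log2 difference 3.28, SE 0.17, adjusted p = 8.66e-06). Hapln1, a link protein, was measured at 0.277 and 0.439 TPM at E15 and 54.5, 52.9 and 49.1 TPM in the adult (log2 difference 5.29, SE 0.35, adjusted p = 2.40e-05). Both were higher in every adult library. The heparan sulfate carriers split by member: Sdc4 stood at 4.03 and 4.63 TPM at E15 and 347, 343 and 326 TPM in the adult (log2 difference 5.99, SE 0.197, adjusted p = 1.58e-06) and Gpc2, a glypican of growing axons, was at 6.996 and 10.3 TPM at E15 and 0.47, 0 and 0.209 TPM in the adult (log2 difference -2.97, SE 0.48, adjusted p = 0.00175). Cadherins were higher for 6 of 24 and lower for 7 (decreases: 2 without E15 replicate 1 and 1 without E15 replicate 2). Cdh8 was at 20.4 and 20.8 TPM at E15 and 1.71, 1.04 and 0.335 TPM in the adult (log2 difference -3.47, SE 0.63, adjusted p = 0.00332), and Cdh11 rose by a log2 difference of 3.08. Collagens had 3 increases and 5 decreases among 22, shares near those of all genes (1 decrease without E15 replicate 1, 2 without E15 replicate 2, 3 without adult replicate 3 or with median-of-ratios scaling). Col2a1 was measured at 4.44 and 5.24 TPM at E15 and 0, 0.0455 and 0.101 TPM in the adult (log2 difference -2.47, SE 0.37, adjusted p = 0.00125).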

How the data were processed

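Total RNA of sorted HopX-positive cells was sequenced in 7 libraries (2 at E15, 2 at postnatal day 3, 3 adult). The authors deposited 1 table of TPM values per gene; bcl2fastq, Bowtie and build mm9 are named per the submitters' processing notes, and the program that computed TPM and its gene models are not given in these sources. TPM keeps no read number, so depth and counting error are unknown. Values were taken as log2(TPM + 1), which understates the change of low genes. The 15931 of 24978 genes that reached 1 TPM in 2 or more libraries were fitted in limma 3.58.1 (R 4.3.3, empirical Bayes with a mean-variance trend) with stage as the factor, all 7 libraries sharing the estimate of the spread. "Higher", "lower", "rose" and "fell" refer to an adjusted p below 0.05 (Benjamini-Hochberg, all tested genes). The fit was tested on simulated data.

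Members and gene lists were chosen with earlier results of these data known. Named genes were Hopx, the 10 largest changes in each direction, genes chosen by role, and up to 2 called members per list with the largest change in each direction; other called genes that are the only ones of their direction, and untested markers, were named after their values were seen. Rows with identical values (978, of which 227 were tested) cannot be told apart. The alternatives were other pseudocounts, filters, scalings, variance models, call rules, a replicate block, and each library left out.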

Additional observations from a re-analysis of the deposited data

How the results depend on the processing

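The number of genes higher in the adult (2457) lay between 2115 (at least 2-fold) and 3080 (median-of-ratios scaling) under the alternatives that kept all E15 and adult libraries, and the number lower (3930) between 2705 (median-of-ratios scaling) and 4030 (pseudocount 5). With each library left out in turn, the increases ranged from 1540 to 2436 and the decreases from 1856 to 3775; the lowest counts came without E15 replicate 2 (1540 and 1856) and without E15 replicate 1 (1593 and 1865), where the lone E15 library was assumed to vary like the other stages. The log2 difference of Hopx stayed between 1.83 and 2.21 and was called throughout. Of 341 called named genes none changed sign under any of the 18 alternatives, and 259 were called under every alternative that tested them; leaving out E15 replicate 1 ended 70 of the calls, leaving out E15 replicate 2 ended 63, and the replicate block ended 27. Whether the replicate numbers pair libraries of different stages is not known. Deviations from the stage means correlated at -0.0232 (E15 and adult replicate 1) and -0.0206 (replicate 2) over genes. With 2 E15 libraries the deviations of either mirror those of the other, so these values cannot decide on pairing. The replicate block gave 2288 higher and 3274 lower genes. With the spread taken from the E15 and adult libraries alone, 2305 genes were higher and 3546 lower.

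Rescaling sets the direction of families with small shifts. The 2 E15 libraries, unknown depth and the unstated brain region limit all results.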

Other observations

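Some gene groups with increases and decreases were not described above. Amino acid carriers of the plasma membrane were higher for 15 of 32 tested genes and lower for 7, with a median log2 difference of 0.63 (4 decreases when either E15 library was left out). Slc7a10, a carrier of small neutral amino acids in astrocytes, was at 1.62 and 2.69 TPM at E15 and 262, 239 and 241 TPM in the adult (log2 difference 6.32, SE 0.24, adjusted p = 3.38e-06). Slc38a10 was measured at 17.9 and 19.5 TPM at E15 and 3.04, 2.52 and 1.64 TPM in the adult (log2 difference -2.56, SE 0.37, adjusted p = 0.00108). Both differences separated the stages in every library. Mitochondrial carriers of the Slc25 family were higher for 10 of 41 and lower for 8, with a median of -0.10 that became 0.23 with median-of-ratios scaling; without E15 replicate 1 the counts were 2 and 2, and without E15 replicate 2 they were 3 and 4. Slc25a18, a glutamate carrier, stood at 1.53 and 3.03 TPM at E15 and 194, 218 and 223 TPM in the adult (log2 difference 6.05, SE 0.33, adjusted p = 1.04e-05).

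Imprinted growth regulators were lower for 7 of 11 and higher for 3 (3 and 0 when either E15 library was left out). Grb10 and Cdkn1c were the largest decreases of that list. Oligodendrocyte progenitor markers were higher for Olig1, Olig2 and Bcan and lower for Vcan and Cacng4, and Pdgfra, Sox10 and Gpr17 did not pass the filter; neither decrease was called without E15 replicate 1. Nuclear subunits of complex IV were higher for 5 of 14 and lower for 1, and the increases numbered 1 without E15 replicate 1, 2 without E15 replicate 2, 2 without adult replicate 3, 3 without adult replicate 2 and 8 with median-of-ratios scaling. Cox8b, a subunit best known from muscle, had E15 values listed at 0 and was found at 25.2, 11.3 and 21 TPM in the adult. Intraflagellar transport genes were lower for 5 of 14 and higher for 1 (2 decreases without E15 replicate 1, 3 without E15 replicate 2 or adult replicate 2 and 3 with median-of-ratios scaling). The increase, Ift57, was not called without E15 replicate 1 (adjusted p = 0.199), E15 replicate 2 (0.173), adult replicate 1 (0.0833) or adult replicate 3 (0.112). SR splicing factors were lower for 6 of 11 and higher for Srsf5 alone, whose call was lost without E15 replicate 2 (adjusted p = 0.0641). Choroid plexus markers were lower for 2 of 5, with no decrease called when either E15 library was left out. Of 25 Hox genes only 1 was tested, and it was not called.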
